A study of Mus musculus with 18 samples.

Results

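Sdc4, Dnah7a, Penk, Slc16a5, Pdlim4, Slc7a10, Ggt1 and Smtn are 8 genes whose RNA differed between neighbouring gates of a Foxp3 fluorescence reporter. They were picked by name for a large difference between Pers2 and Pers1 cells or between PAt and Arrested cells, and no numerical cut-off was attached to the choice. All 8 were present among the 15402 genes of the expression table, and all 8 belonged to the 13190 genes that were tested. Since these differences chose the genes, they are described below without a test, and tests are given only for comparisons that the choice did not use.

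The libraries came from Foxp3-Tocky mice, in which a Timer protein is made under the control of Foxp3 regulatory sequence. Foxp3 is the transcription factor that defines regulatory T cells (Treg). New Timer protein fluoresces blue and then matures to a red form that lasts longer, so that Timer-Blue reads recent Foxp3 transcription and Timer-Red its accumulated history. All animals were female C57/BL6 mice that carried Foxp3Timer together with Foxp3-IRES-GFP, and all had received 3% oxazolone, a contact sensitiser, on the abdominal skin 5 days before the draining lymph nodes were taken. No unsensitised group is among the samples used here, and the labels give no age. CD4+ T cells were sorted into 6 populations. The Timer-negative, GFP-negative cells were split into CD44lo cells (Tnaive) and CD44hi cells (Teff). The Timer+ GFP+ cells were split by brightness into Pers1 cells, with intermediate blue and low red fluorescence, Pers2 cells, high in both colours, PAt cells, with low blue and high red fluorescence, and Arrested cells, with no blue and intermediate red fluorescence. In the terms of the study, Pers1 and Pers2 are gates of persistent Foxp3 transcription, and PAt is the transition from Persistent to Arrested. The study reads Arrested cells, which lack blue fluorescence, as cells whose reporter transcription has stopped. Pers2 is therefore the brighter gate of the persistent pair and PAt the brighter gate of the PAt and Arrested pair, in blue as well as in red. Each population had 3 replicates, each a pool of 3 mice, and each library was made from sorted cells of such a pool.

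Gene expression was available as log2 of normalised counts, in the form that DESeq2 gives after its regularised log transform. This transform shrinks the differences of genes with few reads. Read counts were not analysed here, so that sequencing depth is unknown and the precision rests on the 3 replicates. The values are not corrected for gene length, and levels are compared below only for the same gene between populations. Foxp3 itself was measured first as a check of the labels. The mean of its log2 values in Tnaive cells was 11.34 ± 0.06 (SD, n = 3), and in Teff cells 10.54 ± 0.14. Among Timer+ cells it was 14.82 ± 0.02 in the Pers2 and 14.61 ± 0.07 in the Pers1 gate, 14.53 ± 0.15 in the PAt and 14.42 ± 0.03 in the Arrested gate, and every Timer+ library lay above every Timer-negative library. The 7 markers of CD4+ T cells that were examined were all present, and the log2 of their summed values was between 16.99 and 17.36 in every library. Timer fluorescence was not part of the table, and brightness here means the sorting gate only.

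The 8 genes have different functions. Sdc4 encodes syndecan-4, a cell surface proteoglycan whose heparan sulfate chains bind matrix proteins and growth factors. Penk encodes proenkephalin, the precursor from which enkephalin opioid peptides are cut. Dnah7a encodes a heavy chain of axonemal dynein, the motor of moving cilia. Slc7a10 encodes Asc-1, a transporter of small neutral amino acids, and Slc16a5 encodes a member of the monocarboxylate transporter family. Ggt1 encodes gamma-glutamyltransferase, a surface enzyme that begins the breakdown of extracellular glutathione. Pdlim4 and Smtn encode proteins of the actin cytoskeleton, Pdlim4 with a PDZ and a LIM domain and Smtn (smoothelin) known from contractile smooth muscle. In T cells, transcription of Foxp3 is known to follow signals from the antigen receptor.

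In GRCm38 (mm10) with GENCODE vM21 annotation, all 8 are protein-coding genes and they are spread over several chromosomes. Dnah7a lies at chr1:53397006-53706784 on the minus strand, Sdc4 at chr2:164424247-164443887 (minus), Penk at chr4:4133531-4138819 (minus) and Slc7a10 at chr7:35186385-35201114 (plus). Ggt1 lies at chr10:75561604-75586200 (plus). Slc16a5 at chr11:115462474-115474398 (plus), Pdlim4 at chr11:54054928-54069014 (minus) and Smtn at chr11:3517523-3540612 (minus) share chromosome 11 but are far apart on it. RefSeq promoter windows on GRCm38.p6, of 250 bases before and 50 bases after an annotated start, were matched for 6 of the 8 genes by 9 windows, and Penk and Slc16a5 are named only. The 250 bases before the start are printed 5′ to 3′ on the strand of the gene for Dnah7a and Sdc4, the genes with the largest rise with brightness in both pairs, and for Pdlim4, which changed the opposite way in both pairs. Capitals mark CG dinucleotides, where DNA methylation can occur. The windows lie at chr1:53706785-53707034, chr2:164443189-164443438 and chr11:54069018-54069267, all on the minus strand, and that of Sdc4 falls within an intron of a longer Sdc4 transcript in GENCODE.
Dnah7a: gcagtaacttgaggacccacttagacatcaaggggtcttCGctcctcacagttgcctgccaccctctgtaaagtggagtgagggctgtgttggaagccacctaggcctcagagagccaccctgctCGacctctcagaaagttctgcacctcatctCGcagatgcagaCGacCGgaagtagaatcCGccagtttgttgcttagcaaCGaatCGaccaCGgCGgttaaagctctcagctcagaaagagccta
Sdc4: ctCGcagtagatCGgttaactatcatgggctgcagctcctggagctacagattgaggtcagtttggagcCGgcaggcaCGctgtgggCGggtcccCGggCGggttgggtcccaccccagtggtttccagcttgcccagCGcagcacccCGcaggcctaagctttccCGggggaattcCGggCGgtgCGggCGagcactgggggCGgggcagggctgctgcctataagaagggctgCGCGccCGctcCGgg
Pdlim4: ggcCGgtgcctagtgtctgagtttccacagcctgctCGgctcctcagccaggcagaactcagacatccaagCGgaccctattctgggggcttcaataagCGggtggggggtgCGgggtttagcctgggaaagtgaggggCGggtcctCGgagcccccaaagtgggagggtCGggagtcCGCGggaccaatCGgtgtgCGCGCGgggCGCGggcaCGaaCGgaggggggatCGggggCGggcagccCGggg
The Dnah7a window held 10 CG dinucleotides at 54.4% GC, the Sdc4 window 19 at 68.0% and the Pdlim4 window 21 at 69.2%, against a median of 6 CG dinucleotides and 52.4% GC over all RefSeq windows. Fewer CG dinucleotides were present in 62.2%, 80.3% and 83.7% of all windows, respectively. Among the printed windows only, those of Sdc4 and Pdlim4, genes with opposite directions, were the closest in this respect.

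The 9 windows, including the 50 bases after the start, were searched on both strands for short motifs of transcription factors that act in T cells. The letters were GTAAACA for forkhead factors, TGTGGT for Runx, TGANTCA for AP-1 and GGAAAA for NFAT, and they occur in 3.65%, 16.8%, 7.81% and 23.4% of the 32851 RefSeq windows, respectively. No window of Dnah7a, Sdc4, Pdlim4 or Slc7a10 held any of these letters. NFAT letters were found at 2 places in a window of Ggt1 and at 1 place in that of Smtn, and Runx letters at 1 place in another window of Ggt1. These are matches of letters, not known binding sites.

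Of the 8 genes, 5 differed in the same direction in both pairs with no overlap between the libraries of the brighter and the dimmer gate. Dnah7a, Sdc4 and Penk were higher in the brighter gate of both pairs, and Slc16a5 and Pdlim4 were lower. The remaining genes separated the gates of only 1 pair, Slc7a10 and Ggt1 the persistent pair and Smtn the PAt and Arrested pair. No gene of the 8 had opposite directions without overlap. Because the genes were picked for these differences, the counts are a description. Over all 13190 tested genes, the libraries did not overlap and the direction was the same in both pairs for 943 genes (7.15%), of which 570 were higher (4.32%) and 373 lower (2.83%) in the brighter gate. The direction was opposite without overlap for 140 genes (1.06%). With fewer libraries to overlap, these counts rose, to 1472 genes with the same direction without replicate 3 of Arrested, and to between 223 and 372 genes with opposite ones when any single PAt library, or replicate 1 or 3 of Arrested, was left out. Libraries did not overlap in only 1 of the pairs for 4408 genes (33.4%).

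Dnah7a had the clearest separation of all 6 populations. In replicates 1, 2 and 3, its log2 values were 6.45, 6.46 and 6.45 in Pers1 and 8.0, 8.14 and 7.84 in Pers2 cells. They were 10.01, 10.06 and 9.93 in PAt and 8.84, 8.78 and 8.83 in Arrested cells. The brighter gate was higher in every library of both pairs, by 1.54 (2.91-fold) in the persistent pair and by 1.18 (2.27-fold) in the other. Between libraries of the same number, the difference ran from 1.39 to 1.68 and from 1.10 to 1.28. The Timer-negative libraries were the lowest, at 5.01, 4.77 and 4.74 in Tnaive and 5.29, 5.47 and 5.34 in Teff cells. From the highest to the lowest, the order was PAt, Arrested, Pers2, Pers1, Teff and Tnaive, and no neighbours in this order overlapped. When all tested genes with the same direction and no overlap were ranked by the smaller of their 2 differences, Dnah7a was the 1st of the 570 genes that were higher in the brighter gate.

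Sdc4, the syndecan, was ranked directly after Dnah7a in that order. Its log2 values were 6.30, 6.13 and 6.95 in Pers1 and 7.46, 7.78 and 7.84 in Pers2 cells, and 8.38, 8.52 and 8.59 in PAt and 7.47, 7.39 and 7.39 in Arrested cells. The brighter gate was higher by 1.24 (2.36-fold) and by 1.08 (2.11-fold), and the nearest libraries of the gates were 0.51 and 0.91 apart. The spread was widest in Pers1, where replicate 3 was well above the others. In contrast to Dnah7a, Sdc4 was not low in all Timer-negative cells. It was 5.32, 5.29 and 5.58 in Tnaive but 7.67, 8.07 and 7.59 in Teff cells. PAt libraries were the highest and Tnaive libraries the lowest without overlap, whereas Teff and Pers2 libraries overlapped, as did Pers2 and Arrested libraries.

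Penk, the enkephalin precursor, had the largest difference of the 8 genes in the persistent pair. The log2 values were 8.97, 8.81 and 8.93 in Pers1 and 10.55, 10.47 and 10.69 in Pers2 cells, a difference of 1.67 (3.18-fold). In the other pair they were 9.97, 10.27 and 10.21 in PAt and 9.60, 9.47 and 9.52 in Arrested cells, a difference of 0.62 (1.54-fold). All libraries of the brighter gate were higher in both pairs, and the gap between the nearest libraries was 0.37 in the PAt and Arrested pair and wider in the persistent pair. Timer-negative cells had much lower values, 5.19, 5.37 and 5.42 in Tnaive and 6.36, 6.94 and 6.77 in Teff cells. The order was Pers2, PAt, Arrested, Pers1, Teff and Tnaive with no overlap of neighbours, so that the gates followed red fluorescence from high through intermediate to low. Penk took rank 28 of the 570 genes, owing to the smaller of its differences.

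Slc16a5 and Pdlim4 changed in the opposite direction. Slc16a5 had log2 values of 5.98, 6.12 and 6.26 in Pers1 and 5.43, 5.43 and 5.46 in Pers2 cells, a difference of -0.68 (1.61-fold lower in Pers2). The larger difference was between PAt cells, at 6.48, 6.81 and 7.18, and Arrested cells, at 8.08, 8.30 and 8.39, where it was -1.43 (2.70-fold lower in PAt). Tnaive cells had by far the most of this transporter RNA, with 11.05, 11.07 and 10.99, followed by Teff cells with 9.54, 9.62 and 9.43. The order was Tnaive, Teff, Arrested, PAt, Pers1 and Pers2, again with no overlap of neighbours, and it ended with the gate that is brightest in blue. Slc16a5 was the 6th of the 373 genes that were lower in the brighter gate of both pairs.

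Pdlim4 had log2 values of 6.92, 6.77 and 7.24 in Pers1 and 5.70, 5.38 and 5.66 in Pers2 cells, a difference of -1.40 (2.65-fold lower in Pers2). In PAt cells they were 5.61, 5.15 and 5.24 and in Arrested cells 5.95, 6.00 and 5.76, a difference of -0.57 (1.49-fold lower in PAt) with a gap of only 0.15 between the nearest libraries. It was highest in Tnaive cells, at 11.06, 10.92 and 10.84, and then in Teff cells, at 8.27, 8.04 and 7.91. The order was Tnaive, Teff, Pers1, Arrested, Pers2 and PAt, in which only Pers2 and PAt overlapped. Pdlim4 was the 11th of the 373 genes.

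**Figure D1:**
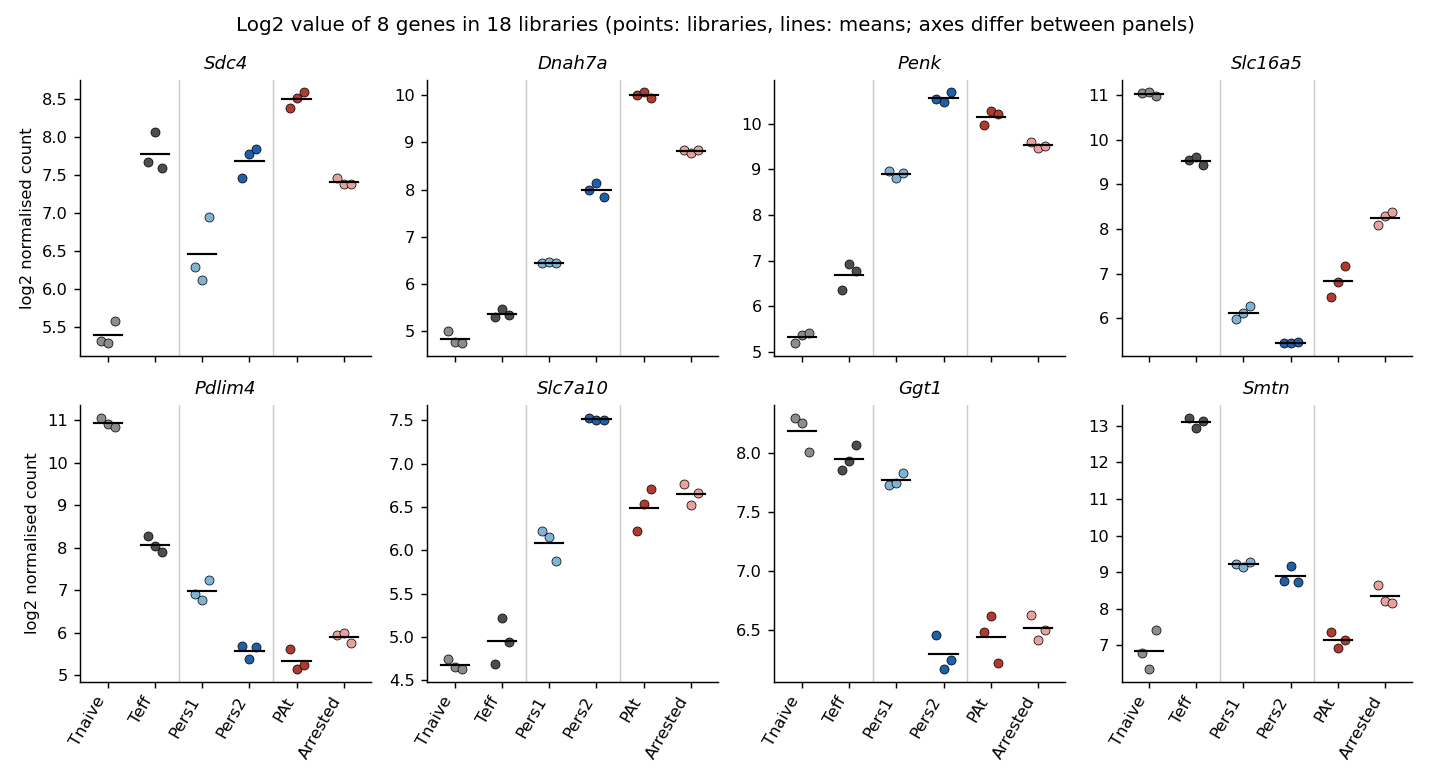
Log2 normalised count (vertical axes, which differ between panels) of the 8 genes in the 6 populations (horizontal axis), with 1 point for each of the 18 libraries and a line at each mean of 3. Grey lines set apart the Timer-negative populations, the persistent pair and the PAt and Arrested pair, and the brighter gate of a pair (Pers2, PAt) is drawn in the darker colour. Dnah7a, Sdc4 and Penk rise and Slc16a5 and Pdlim4 fall with the darker colour in both pairs.

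Slc7a10 and Ggt1 separated the persistent gates only. Slc7a10, the neutral amino acid transporter, had log2 values of 6.22, 6.15 and 5.88 in Pers1 and 7.53, 7.51 and 7.50 in Pers2 cells, a difference of 1.43 (2.69-fold). PAt libraries (6.22, 6.54 and 6.71) and Arrested libraries (6.77, 6.52 and 6.66) overlapped, with a difference of -0.16 whose sign was shared by 1 of the 3 same-numbered pairs of libraries. Tnaive (4.75, 4.65 and 4.63) and Teff (4.69, 5.22 and 4.94) libraries were the lowest and overlapped. Pers2 cells thus stood above every other population in this gene, whereas its level did not separate PAt from Arrested cells.

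Ggt1 was the counterpart of Slc7a10 with the opposite sign. Its log2 values were 7.73, 7.75 and 7.83 in Pers1 and 6.46, 6.17 and 6.25 in Pers2 cells, a difference of -1.47 (2.78-fold lower in Pers2). They were 6.48, 6.62 and 6.22 in PAt and 6.63, 6.42 and 6.50 in Arrested cells, a difference of -0.08 with overlapping libraries. Tnaive (8.30, 8.26 and 8.01) and Teff (7.86, 7.93 and 8.07) cells had the highest values and overlapped. The populations fell into a high group of Tnaive, Teff and Pers1 cells and a low group of Arrested, PAt and Pers2 cells. Neighbours in the low group overlapped, and no library of the high group overlapped the low group.

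Smtn separated PAt from Arrested cells and not the persistent gates. The log2 values were 7.37, 6.92 and 7.15 in PAt and 8.65, 8.20 and 8.16 in Arrested cells, a difference of -1.19 (2.28-fold lower in PAt). In Pers1 cells they were 9.22, 9.15 and 9.29 and in Pers2 cells 8.77, 9.18 and 8.72, a difference of -0.33 with an overlap of 0.03 that came from replicate 2 of both. With each library shifted to the same median, Smtn no longer overlapped in the persistent pair and became the 6th gene with the same direction in both pairs. Smtn differed from the other 7 genes by its level in Teff cells, which was far above all others at 13.22, 12.95 and 13.12, while Tnaive cells had 6.78, 6.35 and 7.43 and overlapped PAt cells.

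The differences of both pairs are shown against each other for all tested genes, with the 8 genes at the margin of the cloud, as their choice requires. Across the 13190 genes, Pearson's r between the difference of Pers2 and Pers1 and that of PAt and Arrested was 0.441, a description across genes, which are not independent replicates. A gene was called where limma's adjusted p was under 0.05 and the log2 difference exceeded 1 in either direction, which held for 25 genes between Pers2 and Pers1 (0.190%) and 16 between PAt and Arrested (0.121%). Without replicate 3 of Arrested, the latter count was 26. These counts are the background of the choice, and nothing about the 8 genes is read from them. Foxp3, which the gates report on, differed by 0.22 between Pers2 and Pers1 and by 0.10 between PAt and Arrested. Its libraries overlapped in the latter pair, and limma's adjusted p was 0.0466 and 0.453, respectively. That the larger difference of each of the 8 genes exceeds those of Foxp3 RNA follows from their choice and is not a result.

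**Figure D2:**
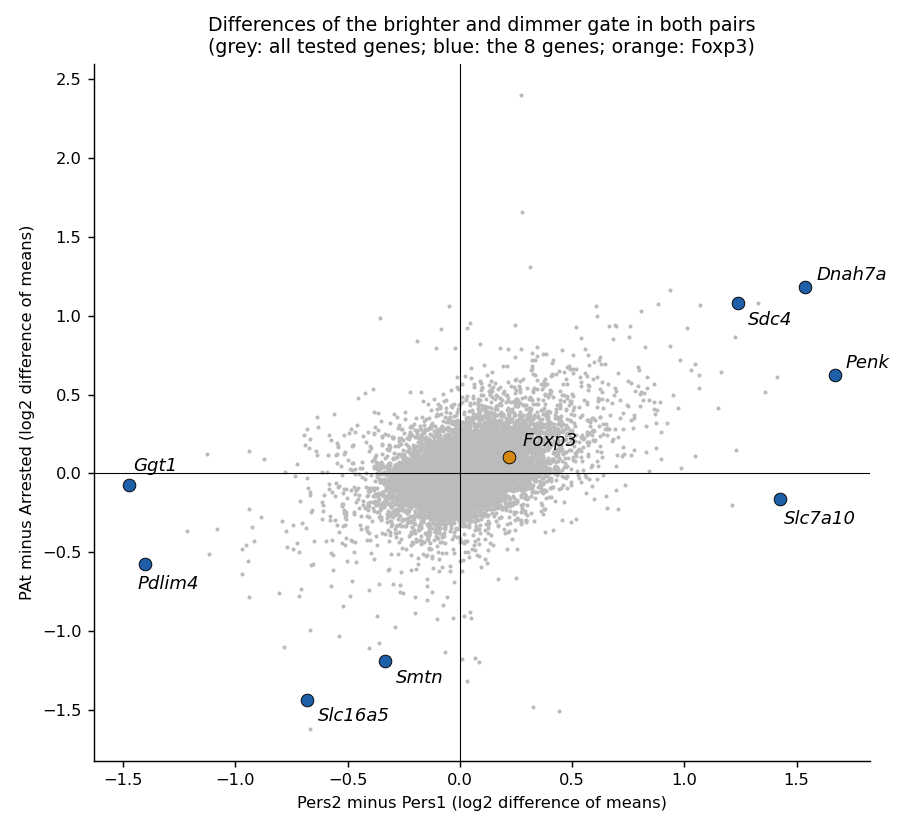
Difference of log2 means between Pers2 and Pers1 (horizontal axis) and between PAt and Arrested (vertical axis), with 1 grey point for each of the 13190 tested genes, the 8 genes in blue and Foxp3 in orange. Dnah7a, Sdc4 and Penk lie at the upper right and Slc16a5, Pdlim4 and Smtn at the lower left, while Slc7a10 and Ggt1 lie close to the horizontal zero line, with differences of -0.16 and -0.08 between PAt and Arrested.

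The difference between Timer+ and Timer-negative cells was not used to choose the genes, and was tested as the mean of the 4 Timer+ populations minus the mean of Tnaive and Teff. Of the 8 genes, 7 were called, 3 higher and 4 lower in Timer+ cells, where 6.38% of all tested genes were called (4.66% higher and 1.71% lower). Penk was higher by 3.78 on the log2 scale (13.7-fold, SE 0.08, limma adjusted p = 4.4e-20), Dnah7a by 3.21 (9.27-fold, SE 0.06) and Slc7a10 by 1.87 (3.65-fold, SE 0.08). Slc16a5 was lower, with a difference of -3.62 (12.3-fold, SE 0.08, limma adjusted p = 4.4e-19), as were Pdlim4 with -3.56 (11.8-fold, SE 0.09), Smtn with -1.58 (2.99-fold, SE 0.12) and Ggt1 with -1.32 (2.49-fold, SE 0.07). The adjusted p of these 5 other genes ran from 2.4e-10 in Smtn to 3.7e-20 in Dnah7a. Sdc4 differed by 0.93 (SE 0.10, limma adjusted p = 1.2e-07), which was under the threshold on the difference. Genes that differ between Timer+ gates were often called here in general: of 29 other genes called in either pair, 24 (82.8%) were called in this comparison, so that the high share among the 8 is shared by such genes.

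For the 5 genes with the same direction in both pairs, the sign between Timer+ and Timer-negative cells was that of the pairs in all 5. In each of them, the mean of the dimmer gate lay closer to the mean of Tnaive and Teff together in both pairs. For Sdc4 this did not hold against Teff alone, to which Pers2 was nearer than Pers1. Among the 938 other genes with the same direction and no overlap in both pairs, the sign was the same in 750 (80%). Measured against Tnaive alone, the dimmer gate was the nearer one in both pairs in 6 of the 8 genes, all but Slc7a10 and Smtn. This held for 4441 of all tested genes (33.7%) and for 620 of the 943 genes with the same direction in both pairs (65.7%). Against Teff alone, the dimmer gate was the nearer one in both pairs in 6 of the 8 genes, all but Sdc4 and Slc7a10. The same was found for 3865 of all tested genes (29.3%) and for 537 of those 943 (56.9%). These counts share libraries with the pairs, were chosen after values had been seen, and are given without a test.

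Against the Timer-negative populations singly, which was also added after values had been seen, all 8 genes were called relative to Tnaive, where 10.3% of tested genes were called, as were 28 (96.6%) of the 29 other genes called in either pair. The differences from Tnaive were 4.46 in Penk, 3.48 in Dnah7a, 2.12 in Sdc4, 2.00 in Slc7a10 and 1.54 in Smtn, and -4.99 in Pdlim4, -4.38 in Slc16a5 and -1.43 in Ggt1. The largest of limma's adjusted p was 1.8e-08, in Smtn. Relative to Teff, 7 of the 8 were called, against 5.45% of tested genes and 22 (75.9%) of those 29. The exception was Sdc4, with a difference of -0.26 (SE 0.14, limma adjusted p = 0.127). Smtn had opposite signs in these comparisons, 1.54 against Tnaive and -4.70 against Teff (SE 0.15 in both), and its lower level in Timer+ cells as a whole came from Teff. Both comparisons share the Timer+ libraries.

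Teff and Tnaive cells, which are Timer-negative and differ by CD44, took no part in the choice of genes. In this comparison 5 of the 8 genes were called, 3 higher and 2 lower in Teff cells, with a background of 11.2% (8.88% higher, 2.28% lower) and 19 (65.5%) of the 29 other genes called in either pair. Smtn had a difference of 6.24 (75.7-fold, SE 0.20, limma adjusted p = 1.3e-16), Sdc4 of 2.38 (5.20-fold, SE 0.17) and Penk of 1.37 (2.58-fold, SE 0.12). Pdlim4 was lower in Teff by a difference of -2.87 (7.29-fold, SE 0.15) and Slc16a5 by -1.51 (2.85-fold, SE 0.14). The largest of limma's adjusted p among these was 5.2e-09, in Penk. Dnah7a differed by 0.52 (SE 0.10, limma adjusted p = 2.0e-04), below the threshold on the difference, and Slc7a10 (0.27, adjusted p = 0.0969) and Ggt1 (-0.24, adjusted p = 0.102) did not pass limma's test. In the 5 genes that kept their direction in both pairs, the sign of Teff minus Tnaive was the same as that of the brighter minus the dimmer gate. This was so for 560 (59.7%) of the 938 other genes with the same direction in both pairs.

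Between the persistent populations and the PAt and Arrested populations, 3 of the 8 genes were called, 1 higher and 2 lower in the persistent populations, against 7.51% of all tested genes (4.74% higher, 2.77% lower). Of the 29 other genes called in either pair, 19 (65.5%) were called here. Dnah7a was lower in the persistent populations with a difference of -2.18 (4.53-fold, SE 0.07, limma adjusted p = 4.3e-16) and Slc16a5 with -1.76 (3.39-fold, SE 0.10, adjusted p = 8.3e-13). Smtn was higher by 1.31 (2.49-fold, SE 0.14, adjusted p = 3.2e-08). Sdc4 (-0.88, SE 0.12), Pdlim4 (0.66, SE 0.10), Ggt1 (0.55, SE 0.09) and Slc7a10 (0.23, SE 0.10) had limma's adjusted p between 1.4e-06 and 0.0409 and stayed under the threshold on the difference. Penk differed by -0.10 (SE 0.09, limma adjusted p = 0.30). Of the 5 genes with the same direction in both pairs, only Slc16a5 had here the sign that it had in the pairs, as did 402 (42.9%) of the 938 other genes. Dnah7a and Sdc4, although higher in the brighter gate of each pair, were lower in the mean of the persistent populations. Without replicate 3 of Pers1, in which Sdc4 was high, the difference of Sdc4 was -1.0 and it was called as well.

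**Figure D3:**
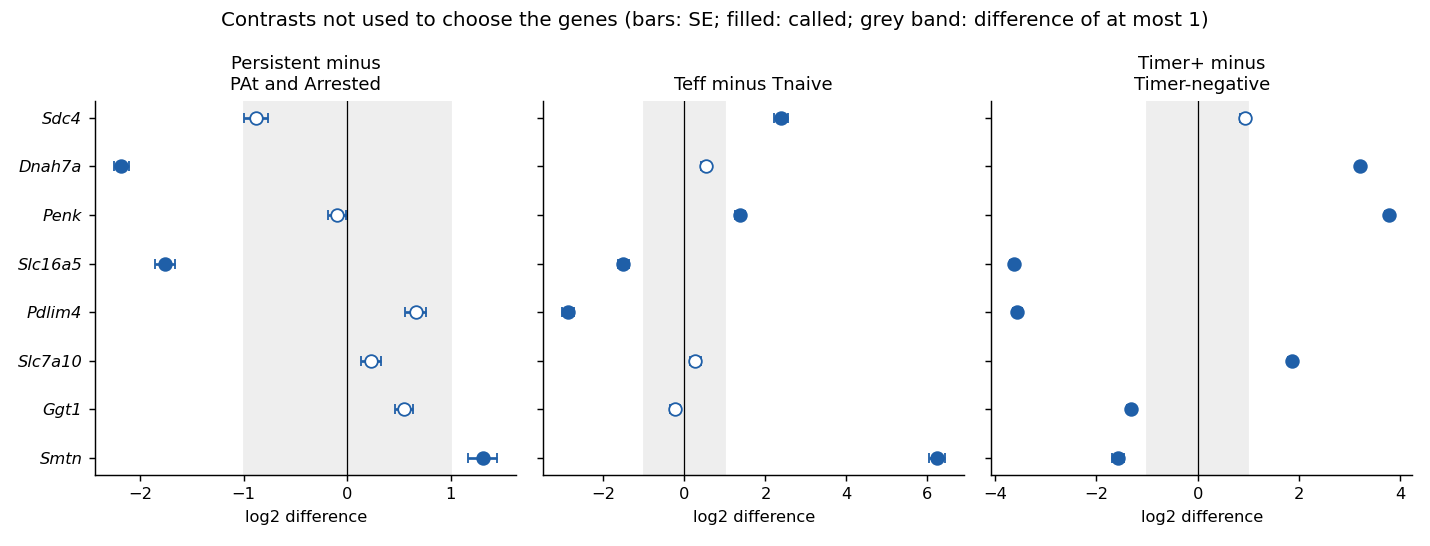
Log2 difference (horizontal axes) of the 8 genes in the 3 comparisons that did not choose them, with bars for the standard error of the limma model and filled points for genes called at an adjusted p under 0.05 and an absolute difference over 1, the limit of the grey band. In the panel of Timer+ minus Timer-negative cells 7 of 8 points are filled, and in the panel of the persistent minus the PAt and Arrested populations 3 are.

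Markers of other cell types were examined beside these results, since a sorted population may hold some other cells. All 10 B cell markers were present, and the log2 of their summed values ran from 10.20 to 10.74 in Tnaive and from 12.90 to 13.47 in Teff libraries, and from 11.49 to 11.67 in Pers1, 11.46 to 11.65 in Pers2, 12.37 to 12.66 in PAt and 12.07 to 12.33 in Arrested libraries. This level did not separate the persistent gates but was higher in PAt than in Arrested libraries, as Dnah7a, Sdc4 and Penk were. The markers of plasmacytoid dendritic cells (6 of 6 present) reached from 11.78 to 12.37 in Teff libraries, where Smtn was highest, against 8.21 to 9.73 elsewhere. They were 8.44 to 8.63 in Pers1 and 8.21 to 8.29 in Pers2 libraries, and 9.62 to 9.73 in PAt and 9.46 to 9.50 in Arrested libraries. Of these markers, Ccr9 and Spib were higher in PAt than in Arrested libraries without overlap, while Siglech, Tcf4, Klk1 and Cox6a2 overlapped. Dendritic cell markers (6 of 6 present) reached from 10.34 to 10.61 in Teff libraries and from 6.78 to 7.25 elsewhere. Macrophage and monocyte markers (7 of 8 present) were at 10.65 to 10.99 in Teff, 8.72 to 9.12 in Pers1 and 8.30 to 8.58 in Pers2 libraries, and overlapped between PAt and Arrested libraries.

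Of 5 epithelial markers, Epcam and Krt18 were present, and their summed level followed the gates of both pairs in the same way as Dnah7a, Sdc4 and Penk. It was 7.69 to 7.90 in Pers1 and 8.85 to 9.10 in Pers2 libraries, and 7.57 to 7.85 in PAt and 6.65 to 7.27 in Arrested libraries. This was set mainly by Epcam, a surface adhesion molecule, which was singled out after its values had been seen. It was higher by 1.23 in Pers2 than in Pers1 (limma adjusted p = 0.000153) and by 0.86 in PAt than in Arrested cells (0.0064). Krt18 was also higher in the brighter gate of both pairs without overlap, at a lower level. Its means were 4.13 in Pers2 and 3.89 in Pers1, and 3.80 in PAt and 3.59 in Arrested cells. Of 4 plasma cell markers, 3 were present, among them the syndecan Sdc1. Their level rose from 6.96 to 7.12 in Pers1 libraries to 7.52 to 7.77 in Pers2 libraries and overlapped between PAt and Arrested libraries. The rise was set by Derl3, with means of 6.54 in Pers1 and 7.31 in Pers2 cells. Sdc1 had means of 4.56 and 4.89, and Jchain of 3.96 in both. Of 7 stromal and endothelial markers, 5 were present and their level was lower in the brighter gate of both pairs, as Slc16a5 and Pdlim4 were. It was 12.12 to 12.24 in Pers1, 11.86 to 12.07 in Pers2, 12.47 to 12.67 in PAt and 12.73 to 12.88 in Arrested libraries. This was set by Pecam1, an adhesion molecule also found on T cells, with differences of -0.23 in both pairs. The summed levels of markers of NK cells (4 of 5 present) and of CD8 T cells (2 of 2 present) overlapped between the gates of both pairs. Singly, Cd8a (means 9.31 and 8.93) and Eomes (6.99 and 6.76) were higher in PAt than in Arrested libraries without overlap. Klrb1c (5.40 and 6.11) was lower there without overlap, while Cd8b1, Ncr1 and Klre1 overlapped. The part of any of these cell types in the differences of the 8 genes was not tested. In sorted bulk samples of this kind, fewer cells of a type and less RNA per cell cannot be told apart, which holds for every difference given here.

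The annotation sets a limit for some of the genes, as the sources used here do not state how reads were counted by strand. The overlaps are given as exon bases of a gene that lie within the whole span of another gene, introns included. For Slc7a10, 575 bp lie within Lrp3 on the opposite strand. Lrp3 was higher in Pers2 than in Pers1 cells by 0.69 and in PAt than in Arrested cells by 0.05. For Penk, 342 bp lie within A830012C17Rik, for Slc16a5 334 within Gm11695, and for Smtn 1104 within Gm11946 and 39 within Gm11947. These other genes are all on the opposite strand and not among the genes measured. Dnah7a has close relatives on the same chromosome, Dnah7b at chr1:46066315-46373546 and Dnah7c at chr1:46425592-46807476, with which it could share reads. Means of Dnah7b on the log2 scale were 3.90 in Pers2 and 3.62 in Pers1 cells, and 4.55 in PAt and 3.95 in Arrested cells, so that it had the same direction in both pairs (0.28 and 0.60, with no overlap). No level is given for Dnah7c, so that values of Dnah7a are uncertain to an unknown extent. For Foxp3 itself, 4577 bp of exons lie within Gm36995, which spans the whole gene, 1437 within Ccdc22 and 266 within Ppp1r3f, all on the opposite strand. A further 853 bp lie within Flicr on the same strand, which counting by strand would not separate. Ggt5 lies directly beside Ggt1 on chromosome 10 and is its paralogue. Ggt5 differed by -0.19 between Pers2 and Pers1, with overlapping libraries, and by -0.54 between PAt and Arrested, and so did not share the pattern of Ggt1.

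Other genes with the same pattern were taken as the 5 in each direction with the largest smaller difference of both pairs. Dscam, a cell adhesion molecule of the immunoglobulin superfamily, followed Sdc4 with differences of 1.33 between Pers2 and Pers1 and 1.08 between PAt and Arrested. Next came Dgat2 (1.07 and 1.07), which makes triglycerides, Itgae (0.94 and 1.16), the CD103 integrin of T cells in epithelia, the potassium channel Kcnj15 (1.01 and 0.92) and Fgl2 (0.88 and 1.07), a secreted product of Treg. Genes lower in the brighter gates were led by Ly6c1 (-0.78 and -1.10), a surface antigen of the Ly6 family, the motor protein Myo6 (-0.94 and -0.78), the complement component Hc (-0.81 and -0.76), Dapl1 (-0.72 and -0.78) and the neurotrophin receptor Ntrk3 (-0.71 and -0.73). Sdc4 and Dscam resembled each other also outside the pairs, as Dscam had means of 5.22 in Tnaive and 7.27 in Teff cells and was highest in PAt cells with 7.92. Slc16a5 resembled Dapl1, which had means of 11.11 in Tnaive, 10.06 in Teff, 8.23 in Arrested, 7.45 in PAt, 6.52 in Pers1 and 5.81 in Pers2 cells, the same order as Slc16a5.

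The pattern in both pairs did not fix the level elsewhere. Itgae and Fgl2 were higher in the persistent than in the PAt and Arrested populations by 2.36 and 1.97 (limma adjusted p = 3.5e-18 and 1.1e-14), whereas Dnah7a and Dscam were lower there, by -2.18 and -0.73. Ly6c1 had similar means of 11.03 in Tnaive and 11.13 in Arrested cells and of 8.57 in Teff and 8.22 in Pers2 cells. Myo6 differed by -0.01 between Timer+ and Timer-negative cells (limma adjusted p = 0.94). Hc, although lower in the brighter gate of both pairs, was higher in Timer+ than in Timer-negative cells by 1.08 (limma adjusted p = 3.3e-11).

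**Figure D4:**
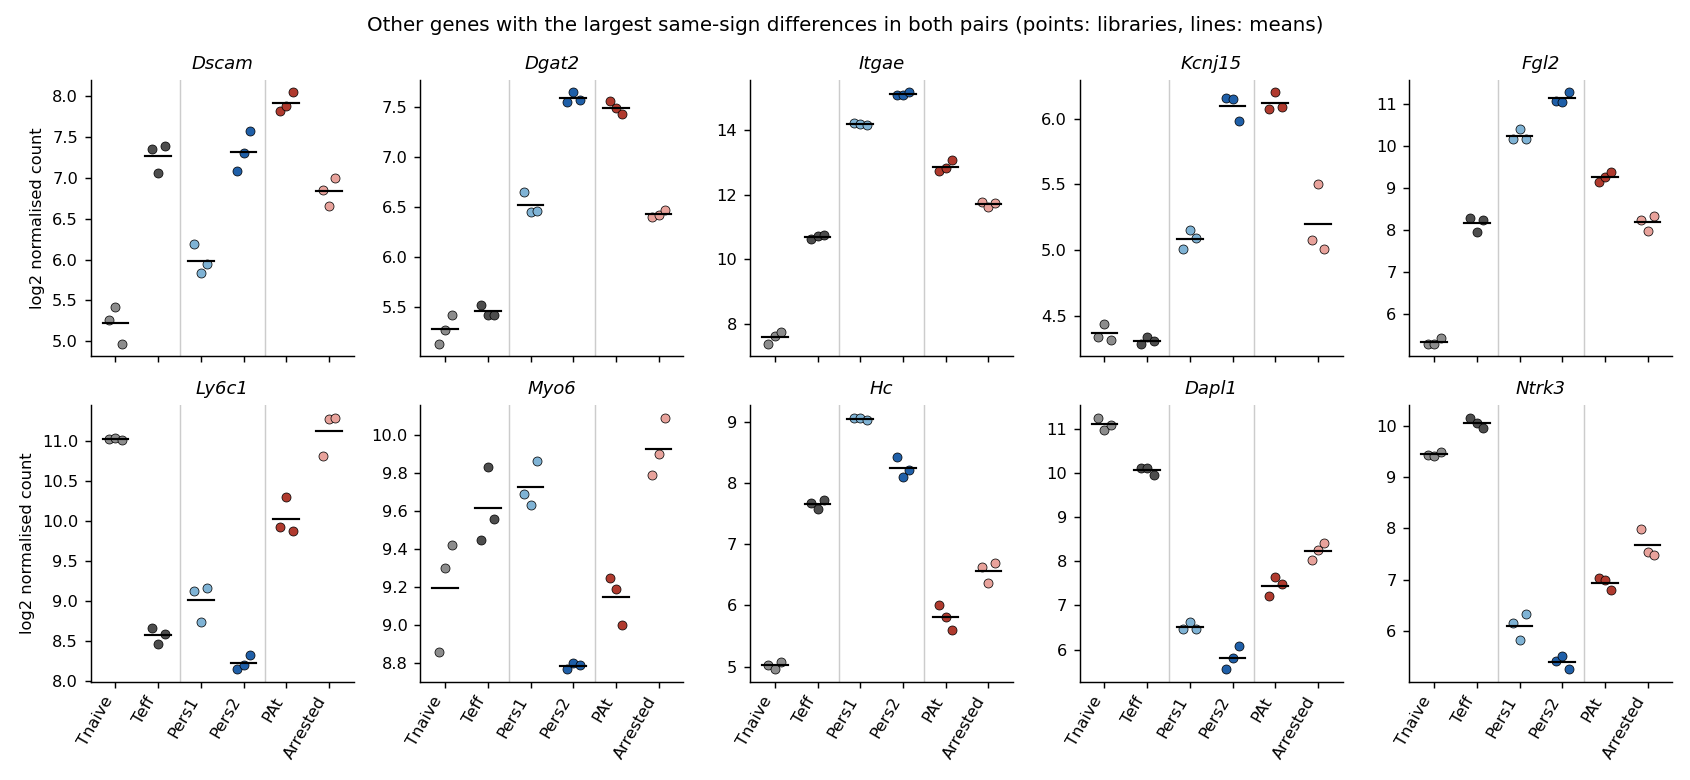
Log2 normalised count (vertical axes, which differ between panels) of 10 other genes with the same direction and no overlap in both pairs, in the 6 populations (horizontal axis), with 1 point for each of the 18 libraries and a line at each mean of 3. The upper row is higher and the lower row lower in the brighter gate (Pers2, PAt), and the rows differ widely in Timer-negative cells, such as Ly6c1 with means of 11.03 in Tnaive and 8.57 in Teff cells.

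The likeness of the 8 genes to each other, and of 7 of them to other genes, over the 18 libraries is given as a description, since libraries of the same population share a sorting gate and are not independent points. Penk and Slc7a10 had Pearson's r of 0.954, Penk and Pdlim4 of -0.962 and Dnah7a and Ggt1 of -0.912. Smtn stood apart, with r from -0.390 to 0.303 to the other 7 genes. Among all tested genes, the 2 most like Penk were Ttn (0.997) and Apol9a (0.987). Ttn had differences of 1.36 and 0.52 in the pairs, close to the 1.67 and 0.62 of Penk. The 2 most like Sdc4 were Dscam (0.961) and Cnrip1 (0.935), those most like Dnah7a were Noxa1 (0.984) and Pla2g4f (0.983), and those most like Slc16a5 were Dapl1 (0.991) and Xkrx (0.987). Pdlim4 was most like Gramd3 (0.985) and Acvrl1 (0.982) and Slc7a10 like Rhod (0.973) and Penk. Ggt1 had the lowest values of these, with Smap2 (0.911) and Dnajc3 (0.908).

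Relatives of the 8 genes were examined in the same comparisons. In 8 lists of relatives and pathway partners, from which the 8 genes were left out, none of 69 tested genes was called by limma between Pers2 and Pers1 or between PAt and Arrested. Calls were as rare over all tested genes (0.190% and 0.121%), so that this count says nothing particular about the lists. At an unadjusted p under 0.05 there were 25 (36.2%) and 19 (27.5%) of them, against 24% and 18.1% of all tested genes. At an adjusted p under 0.05 with no limit on the difference there were 13 (18.8%) and 8 (11.6%), against 10.6% and 5.04% of all tested genes. The medians of the lists lay between -0.18 and 0.34 in the former and between -0.15 and 0.15 in the latter comparison, beside medians of 0.00 and 0.01 over all tested genes. Of 8 other dynein heavy chains tested and of 10 other Slc7 transporters tested, none was called by limma in any of the 5 comparisons. Between the persistent and the PAt and Arrested populations, 7 of these dyneins and 7 of these transporters had an unadjusted p under 0.05, all with differences of at most 1. Of all tested genes, 72.9% had such a p in this comparison, so that these counts say nothing particular about either family. Of 4 syndecans and glypicans tested, Sdc1 was higher in Teff than in Tnaive cells by 1.21 (limma adjusted p = 7.4e-08).

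Among 8 genes of opioid peptides, their receptors and peptide processing, Anpep, a peptidase that degrades enkephalins, was higher in Teff than in Tnaive cells by 2.68 and lower in Timer+ than in Timer-negative cells with -1.88 (limma adjusted p = 5.0e-14). Cpe, a carboxypeptidase of peptide hormone processing, was higher in Timer+ cells by 1.09 (adjusted p = 2.9e-11), as Penk was. Of 11 monocarboxylate transporters, Slc16a3 (1.30) and Slc16a10 (1.19) were higher in the persistent than in the PAt and Arrested populations and Slc16a3 in Timer+ cells (1.37), opposite to Slc16a5 in all of these comparisons. Of 4 PDZ and LIM genes, Pdlim7 was higher in Teff than in Tnaive cells by 1.96 (limma adjusted p = 4.6e-10), opposite to Pdlim4.

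Of 11 genes of the gamma-glutamyl cycle and glutathione, Ggt5 and Nfe2l2 were lower in Timer+ than in Timer-negative cells with -3.81 and -1.02 (limma adjusted p = 3.5e-18 and 3.4e-14), the direction of Ggt1. Ggt5 was also lower in Teff than in Tnaive cells (-3.16) and in the persistent than in the PAt and Arrested populations (-1.19). Of 13 genes of smoothelins and actin-binding contractile proteins, Actg2 was higher in Timer+ than in Timer-negative cells (2.61) and in Teff than in Tnaive cells (1.62). Actn1 was lower in Timer+ cells (-1.50) and in the persistent than in the PAt and Arrested populations (-1.27). In the latter comparison Cnn3 was lower (-2.22) and Tpm4 higher (1.02), and Cnn3 was also lower in Teff than in Tnaive cells (-1.67). None of these differed between Teff and Tnaive cells by as much as Smtn. Over all lists, 6 of 69 genes (8.7%) were called between the persistent and the PAt and Arrested populations, 6 (8.7%) between Teff and Tnaive and 7 (10.1%) between Timer+ and Timer-negative cells, beside 7.51%, 11.2% and 6.38% of all tested genes.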

How the data were processed

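RNA was measured in 18 libraries, 3 for each of 6 sorted populations. According to the methods of the study and the submitters' processing notes, the authors prepared stranded mRNA libraries and aligned paired-end reads to mm10 with TopHat2 2.0.9, after CASAVA 1.8.2 and FastQC 0.11.2, and used DESeq2. The counting tool, its strand setting and the annotation are not given in the sources used here. The deposited values are log2 of normalised counts, from -0.02 to 18.89 with 173 below 0, in the form of a regularised log transform, and were used as deposited with no pseudocount. All columns were matched to samples by their names.

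Genes whose log2 values averaged under 3 were left out (2212), which left 13190 for testing. With limma 3.58.1 (R 4.3.3), 1 mean for each population was estimated over the 18 libraries, which leaves 12 residual degrees of freedom. The eBayes step used a trend on mean expression, and p-values were adjusted over all tested genes by the Benjamini-Hochberg method. The thresholds were those of the study, 0.05 for the adjusted p and 1 for the size of the log2 difference. The fit was tested on simulated data. Libraries had medians from 9.59 to 9.76, and replicates correlated with r from 0.996 to 0.9988.

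The genes and lists were chosen with earlier results of these data known. The genes named were the 8 genes, Foxp3, the 5 others in each direction with the largest smaller difference in both pairs, the 2 genes most correlated with each of the 8, and up to 4 called genes of each family list. The genes most correlated with Smtn are not reported here. The means of Dnah7b, Ggt5, Lrp3, Ttn, Epcam, Krt18, Sdc1, Derl3 and Jchain were added after their values had been seen. So were the single markers of plasmacytoid dendritic cells, NK cells and CD8 T cells. In 22 rows the symbol is a date, and these are not named. Sequences and motifs came from RefSeq (GRCm38.p6) and positions from GENCODE vM21.

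The replicate number was taken to pair libraries, because the labels have all populations sorted from each animal, although no source states that a number marks the same pool. Deviations from population means had a median correlation of 0.166 (from -0.206 to 0.436) in 45 same-numbered pairs of libraries and of -0.0642 in 90 others. The main fit had no block, since the methods of the study name none. The p-values rest on the spread between the 3 libraries of a population, pooled over the 6 populations and moderated across genes. Without the block, libraries of the same number were treated as independent. Other filters, thresholds, scalings, sets of libraries and a fit with the block were tried.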

Additional observations from a re-analysis of the deposited data

How the results depend on the processing

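The differences of the 8 genes kept their sign under every alternative that was run, except that of Ggt1 between PAt and Arrested, whose libraries overlap and which was 0.03 without PAt replicate 3 against -0.08. The threshold mattered most. By adjusted p alone, 9357 genes were called between the persistent and the PAt and Arrested populations (7 of the 8 genes, 50.6% of the calls higher against 63.1%), 7785 between Teff and Tnaive (53.1% higher against 79.6%), 8129 between Timer+ and Timer-negative cells (51.2% higher against 73.1%), 8808 against Tnaive alone (52.5% against 78.5%), 6128 against Teff alone (51.5% against 37.6%), 1395 between Pers2 and Pers1 (56.9% against 76%), 665 between PAt and Arrested and 154 in the family lists. With the replicate block, which compares libraries of the same number, 1964 genes in place of 943 had the same direction in both pairs and 551 in place of 140 opposite ones, while 992 genes were called between the persistent and the PAt and Arrested populations, and the block changed no call of the 8 genes. Leaving out 1 library at a time gave 12 to 26 genes between PAt and Arrested, 943 to 1472 genes with the same direction in both pairs and 140 to 372 with opposite ones, all highest without Arrested replicate 3. It gave 25 to 32 genes between Pers2 and Pers1. The number of the 8 genes with the same direction in both pairs was 5 or 6, with Smtn as the 6th without replicate 2 of Pers1 or of Pers2 and with equal library medians. The number called between the persistent and the PAt and Arrested populations was 3 or 4, and that between Timer+ and Timer-negative cells 7 or 8, where Sdc4 was called (1.00) without Teff replicate 2. Fits of only the libraries compared could not differ for Timer+ against Timer-negative cells, which use all libraries, and were not run for the family lists. Since the transform shrinks differences of genes with few reads, the folds of low genes are likely understated, and the depth that would show by how much is unknown.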
